A study of Mus musculus with 20 samples.

Results

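Messenger RNA of 9 transcription factors that steer T cells between effector, memory and regulatory states was followed in mouse regulatory T cells (Tregs) and CD8+ T cells given IL-2 or IL-2-REH. The factors were Tbx21, Eomes, Prdm1, Bcl6, Id2, Id3, Gata3, Irf4 and Bach2, taken by symbol as 9 of the 23992 gene symbols in the files, each read from whichever of its transcripts drew most reads in the 20 libraries. Tregs were GFP-positive CD4+ cells sorted from B6-Foxp3EGFP reporter mice, and CD8+ T cells were purified with an isolation kit from C57BL/6J mice, both from spleen and lymph node, although the strain field of every sample record reads C57BL/6N. Each cell type was left without cytokine, or was given 200 nM IL-2 or 200 nM IL-2-REH outside the animal for 1.5 hr or 4 hr. IL-2-REH is human IL-2 with mutations in the surface that binds the common gamma chain of the receptor, and acts as a partial agonist. Each of the 5 Treg groups had 3 libraries and each of the 5 CD8+ groups had 1. Neither the ages nor the number of the mice was given, and no source states that the numbered libraries came from separate mice, so p-values measure the spread between these libraries.

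IL-2 binds a receptor of alpha, beta and gamma chains and signals mainly through the transcription factor STAT5, which enters the nucleus and binds DNA as a dimer. Among the targets of this pathway are several of the regulators studied here. Tbx21 (T-bet), Eomes, Prdm1 (Blimp-1) and Id2 are linked with effector differentiation, Bcl6, Id3 and Bach2 with memory, follicular or quiescent states, and Gata3 and Irf4 with T helper and effector Treg function. Bcl6 and Prdm1 repress each other in lymphocytes, and STAT5 is known as a repressor of Bcl6.

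The marker genes matched the labelled cell types. Foxp3 ranged from 65.2 to 252 RPKM (reads corrected for transcript length and sequencing depth) over the 15 Treg libraries and from 0.482 to 0.999 RPKM over the 5 CD8+ libraries. Cd8a ranged from 0.0879 to 1.84 RPKM in Tregs and from 103 to 256 RPKM in CD8+ T cells. Reads on genes ran from 20201392 to 63903764 per Treg library and from 38201668 to 45189835 per CD8+ library. Among the Tregs, unstimulated replicate 1 stood apart from its group for several of the 9 factors, and IL-2 4 hr replicate 3 had the fewest reads of all libraries.

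Differences between Treg groups were tested on read counts with edgeR's quasi-likelihood test over 14992 genes, with p-values adjusted by the Benjamini-Hochberg method and a gene called at an adjusted p under 0.05. All 9 factors passed the filter on low counts. A second edgeR fit took the replicate number as a block, because same-numbered libraries deviated together. At 1.5 hr, 0 of the 9 factors were called against unstimulated cells with either cytokine, where 0.854% of all genes were called for IL-2 and 0.0934% for IL-2-REH. At an unadjusted p under 0.05, edgeR passed 2 of 9 with IL-2 (Gata3 and Irf4) and 1 of 9 with IL-2-REH (Irf4), and DESeq2 called 1 and 0 after adjustment. The share of all genes called by DESeq2 is not given here, so that its counts are a description. Of all 14992 genes, 2068 (13.8%) had an unadjusted p under 0.05 for IL-2 and 1702 (11.4%) for IL-2-REH. At 4 hr, 1 of 9 was called with IL-2 (Bach2, higher), against 2.26% of all genes, and 0 of 9 with IL-2-REH, against 0.314% (4 of 9 at an unadjusted p under 0.05, where 13.3% of all genes passed, and 1 by DESeq2). With the replicate block, 3 of 9 were called with IL-2 at 4 hr (Bach2 higher, Eomes and Id2 lower), against 6.94% of all genes, and 0 of 9 in the other 3 comparisons with unstimulated cells, against 1.83% (IL-2 1.5 hr), 0.213% (IL-2-REH 1.5 hr) and 3.03% (IL-2-REH 4 hr). Each unstimulated and each 4 hr IL-2 library was then left out of the block fit in turn, an alternative chosen after the data had been seen. The count with IL-2 at 4 hr was 1 of 9 without IL-2 4 hr replicate 3 (Bach2), where 522 of 15433 genes were called. It was 5 of 9 without unstimulated replicate 1 (Irf4 and Id3 in addition), where 3248 of 15494 genes were called. Without each of the other 4 libraries it was 2 or 3 of 9, where 364 to 1140 of all genes were called. The higher count without unstimulated replicate 1 thus came with more calls over all genes.

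Comparing IL-2-REH with IL-2, edgeR called 0 of the 9 factors at 1.5 hr (0.0133% of all genes, with or without the block) and at 4 hr (0.0267% without and 0.0667% with the block). Bcl6 was the 1 factor with an unadjusted p under 0.05 at each time, where 0.994% (149) and 3.73% (559) of all genes had one, and with the block Eomes also had one at 4 hr (2 of 9, against 6.21% of all genes). DESeq2 called 0. None was called between 4 hr and 1.5 hr of IL-2 (0% of all genes without and 0.387% with the block) or of IL-2-REH (0% and 0.04%), and DESeq2 called 1 and 0. At an unadjusted p under 0.05, edgeR passed 3 of 9 with IL-2 (7 of 9 with the block) and 2 of 9 with IL-2-REH (3 of 9 with the block), where 17% (24.2% with the block) and 14.6% (21.6%) of all genes passed. For the change of the difference between the cytokines from 1.5 hr to 4 hr, 0 of 9 were called by edgeR or DESeq2 and 0 had an unadjusted p under 0.05 (0.314% of all genes had one), and 0% of all genes were called by edgeR. The median log2 fold change of the 9 factors against unstimulated Tregs was -0.04 (IL-2) and -0.08 (IL-2-REH) at 1.5 hr, and -0.45 and -0.36 at 4 hr. Over all 14992 genes it was -0.06, -0.05, -0.00 and 0.01 in the same order.

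**Figure D1:**
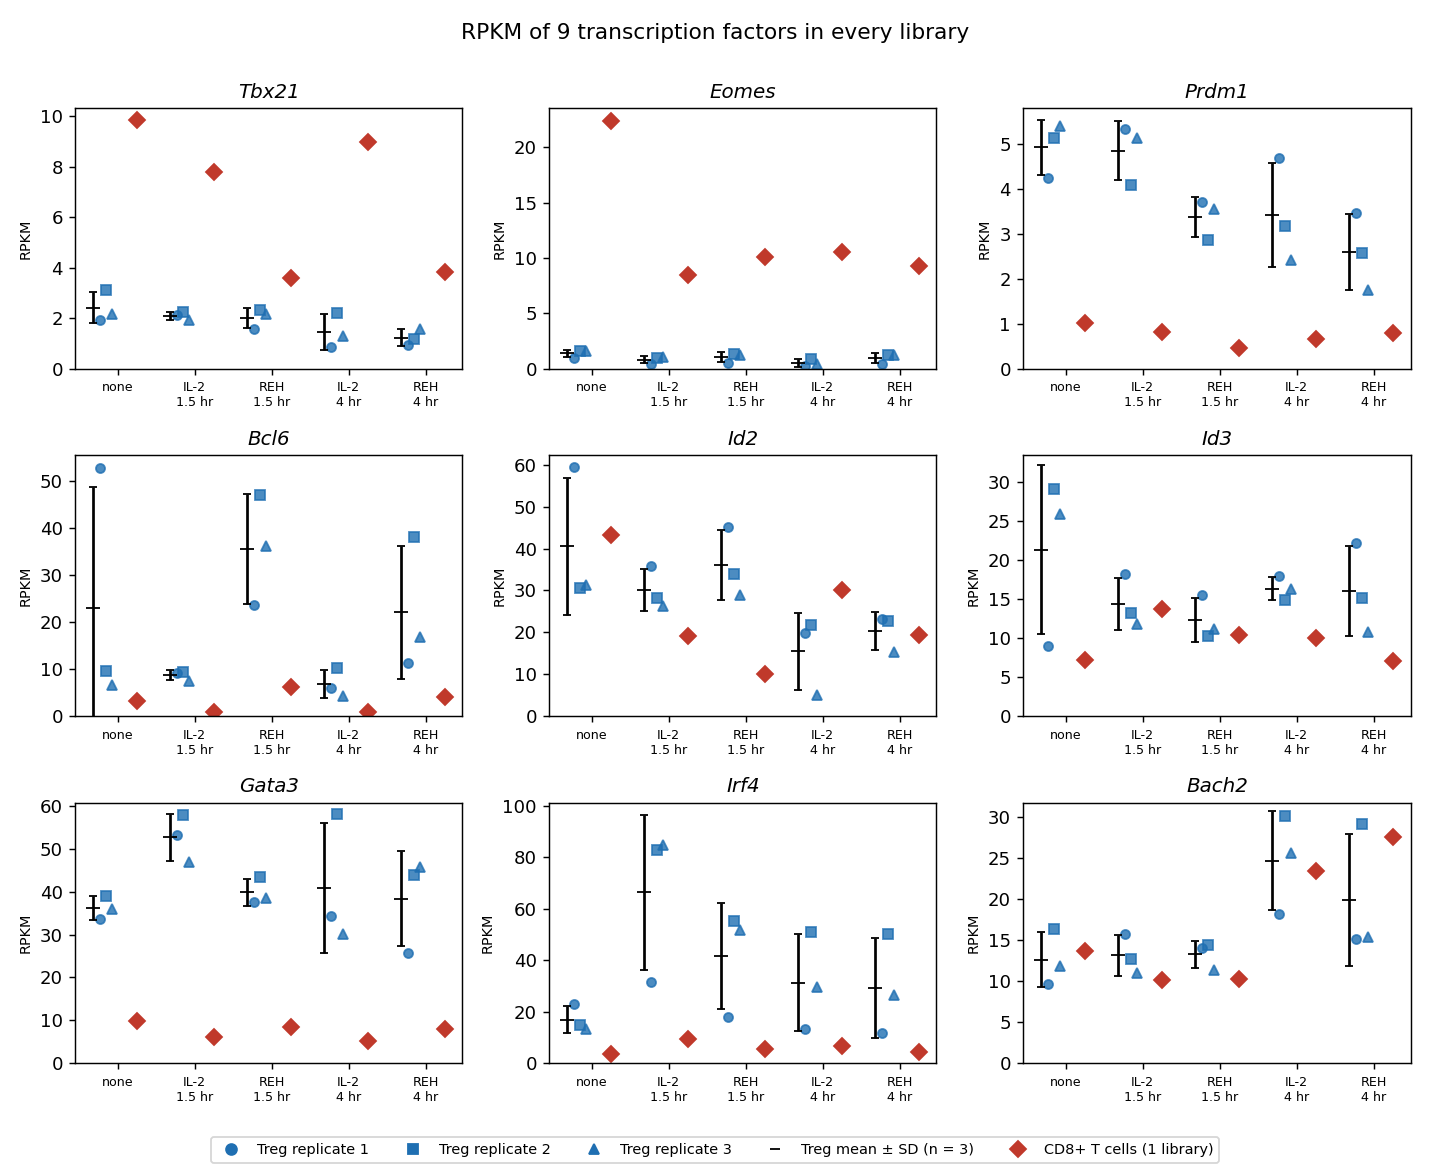
RPKM of each of the 9 factors (vertical axes, linear from 0, each panel on its own scale) in the 5 conditions (horizontal axes, none for unstimulated and REH for IL-2-REH), with blue symbols for the 3 Treg libraries by replicate number, black bars for their mean and SD, and red diamonds for the single CD8+ library. Tbx21 and Eomes are higher in CD8+ T cells in every condition, Prdm1, Bcl6, Gata3 and Irf4 are higher in Tregs, and the lower SD bar of unstimulated Bcl6 (22.9 ± 25.7 RPKM) is clipped at 0.

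On the RPKM scale, which is per length, Gata3 had the highest median over the 15 Treg libraries (39.1 RPKM). It was followed by Irf4 (29.4), Id2 (28.2), Id3 (15.1), Bach2 (15.1), Bcl6 (10.2), Prdm1 (3.70), Tbx21 (1.95) and Eomes (0.992 RPKM). In the 5 CD8+ libraries, Id2 had the highest median (19.4 RPKM), then Bach2 (13.6), Eomes (10.1), Id3 (9.99), Gata3 (7.87), Tbx21 (7.81), Irf4 (5.62), Bcl6 (3.21) and Prdm1 (0.792 RPKM). In both orders the ranges of all neighbouring factors overlapped over the libraries, which pool all conditions. Within single libraries, Bcl6 was above Prdm1 in all 15 Treg and all 5 CD8+ libraries, and Prdm1 was above Tbx21 in all 15 Treg libraries. The other neighbours changed order between libraries.

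Bcl6, a zinc finger repressor that directs follicular helper and memory fates, was higher with IL-2-REH than with IL-2 in every same-numbered pair of both cell types, a difference that did not pass the test over all genes in Tregs. The gene (NM_009744) lies on the minus strand of chromosome 16, chr16:23965050-23988866 in GRCm38.p6, and shares 21 exon bases with Gm37419 on the other strand. With IL-2, the 3 Treg libraries held 9.10, 9.31 and 7.37 RPKM at 1.5 hr and 5.91, 10.2 and 4.23 RPKM at 4 hr. With IL-2-REH, they held 23.6, 46.9 and 36.2 RPKM at 1.5 hr and 11.3, 38.1 and 16.8 RPKM at 4 hr. Every IL-2-REH library was thus above every IL-2 library of its time point. Over all genes tested, 2.42% were so ordered at 1.5 hr and 5.44% at 4 hr, and Bcl6 was the only one of the 9 factors at both times. Of the other factors, Prdm1 and Gata3 lay lower in all 3 IL-2-REH libraries at 1.5 hr (3.04% of all genes) and none at 4 hr (2.36%).

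In Tregs, the difference of IL-2-REH from IL-2 in Bcl6 was a log2 fold change of 2.08 (SE 0.69, edgeR adjusted p = 1.0) at 1.5 hr and 1.64 (SE 0.68, edgeR adjusted p = 1.0) at 4 hr, so that it missed the threshold over all genes at both times. Leaving out any 1 replicate number or library gave 1.83 to 2.36 at 1.5 hr and 1.08 to 1.95 at 4 hr. In a fit of the 2 groups alone, it was 2.06 at 1.5 hr (SE 0.28, edgeR adjusted p = 0.22) and 1.61 at 4 hr (SE 0.43, edgeR adjusted p = 1.0). The single CD8+ libraries had the same order. They held 0.898 RPKM with IL-2 (205 reads) and 6.23 RPKM with IL-2-REH (1274 reads) at 1.5 hr, and 0.777 RPKM (173 reads) and 4.07 RPKM (968 reads) at 4 hr. The ratio of IL-2-REH to IL-2 in CD8+ T cells was 6.94 at 1.5 hr (95% exact binomial interval 5.98 to 8.08) and 5.23 at 4 hr (4.45 to 6.19), where the intervals cover counting error only and there is no replicate.

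Read as log2 ratios of RPKM + 1 in same-numbered libraries, the 3 Treg pairs gave 1.28, 2.22 and 2.15 at 1.5 hr and 0.83, 1.81 and 1.77 at 4 hr, and the CD8+ pairs gave 1.93 and 1.51. The 8 pairs share no library but are not 8 independent replicates, since the 6 Treg pairs come from 3 replicate numbers whose libraries deviated together. All 8 pairs were higher with IL-2-REH. This held for 4.35% of the 9669 genes with a mean of at least 1 RPKM in both cell types, and Bcl6 had the highest mean of the 8 log2 ratios of all of them (1.69), a ranking that was made after its values had been seen. Over the 6 Treg pairs alone its mean ranked 1 of 9669, and over the 2 CD8+ pairs it ranked 1. Irf4 was the only one of the 9 factors that was lower in all 8 pairs (mean -0.45, range -0.78 to -0.03), as were 3.61% of the 9669 genes.

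**Figure D2:**
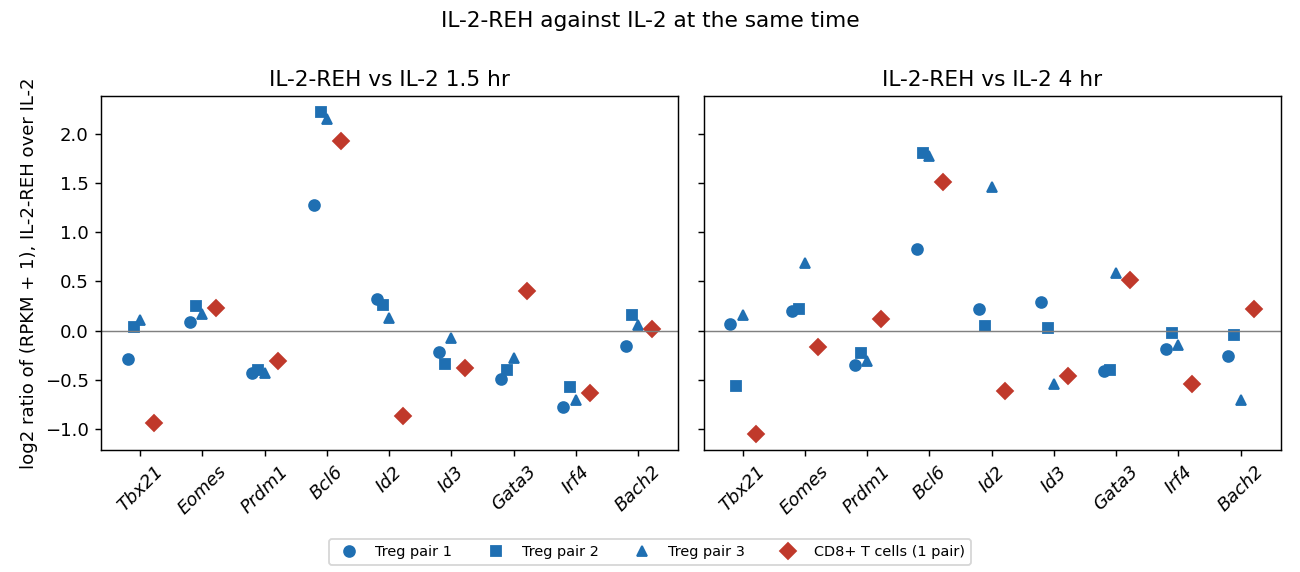
Log2 ratio of RPKM + 1 with IL-2-REH over IL-2 (vertical axis) for each of the 9 factors at 1.5 hr (left) and 4 hr (right), with blue symbols for the 3 same-numbered Treg pairs and red diamonds for the CD8+ pair. Bcl6 lies above 0 in all 8 pairs, from 0.83 to 2.22, and the other factors lie between -1 and 1 but for Id2 in Treg pair 3 (1.46) and Tbx21 in the CD8+ pair (-1.05), both at 4 hr.

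Against unstimulated Tregs, the values of Bcl6 turned on 1 library. The unstimulated libraries held 52.6, 9.43 and 6.63 RPKM, so that replicate 1 was far above the other two. The log2 fold change of IL-2-REH at 1.5 hr over unstimulated cells was 0.70 (SE 0.67, edgeR adjusted p = 0.70) with that library and 2.41 (SE 0.48, edgeR adjusted p = 0.0064) without it. With IL-2 at 1.5 hr it was -1.38 (SE 0.68, edgeR adjusted p = 0.39) with the library and 0.33 (edgeR adjusted p = 0.65) without it. With IL-2-REH at 4 hr it was -0.19 (SE 0.66, edgeR adjusted p = 0.93) and 1.52 (edgeR adjusted p = 0.064). The sign of the Bcl6 change from baseline therefore differed with and without unstimulated replicate 1 for IL-2 at 1.5 hr and for IL-2-REH at 4 hr. Without replicate 1 of every group, Bcl6 was called as higher with IL-2-REH at 1.5 hr (2.67, edgeR adjusted p = 0.0038) and at 4 hr (1.83, edgeR adjusted p = 0.020). The fold change between the cytokines does not use the unstimulated library, but its SE and p come from the fit of all 5 groups, which holds it. B cells also express Bcl6, and the summed level of 6 B cell markers was 3.07, 9.80 and 19.7 RPKM in the unstimulated libraries. Their part in the values of Bcl6 was not tested. The unstimulated CD8+ library held 3.21 RPKM (648 reads), which lay between the IL-2 and the IL-2-REH libraries at both times.

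The promoters are shown because STAT5 binds letters of the form TTCNNNGAA, and Bcl6 and Bach2 were the members whose promoters held them. RefSeq gives 10 promoters for the 9 members in GRCm38.p6, each from 250 bases before to 50 bases after a transcription start, on the strand of the gene. The letters TTCNNNGAA, which read the same on both strands, occurred in 8.3% of all 32851 promoters of this length. They were at 1 place in the upstream promoter of Bcl6, at 3 places in its downstream promoter and at 1 place in the Bach2 promoter, and not in the promoters of the other 7 members. At 3 or more places, they occurred in 0.0335% of all promoters (11 of 32851). This cut-off equals the count in the downstream promoter of Bcl6 and was used for no other motif, so that the share is a description only. Capitals mark the letters TTCNNNGAA.
Bcl6 upstream promoter, chr16:23988803-23989102, minus strand: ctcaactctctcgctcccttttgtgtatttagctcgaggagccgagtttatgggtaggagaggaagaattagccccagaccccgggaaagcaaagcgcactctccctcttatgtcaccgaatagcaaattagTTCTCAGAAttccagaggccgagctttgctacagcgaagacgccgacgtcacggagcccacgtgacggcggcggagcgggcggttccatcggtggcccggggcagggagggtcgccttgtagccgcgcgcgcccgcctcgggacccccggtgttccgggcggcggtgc
Bcl6 downstream promoter, chr16:23981234-23981533, minus strand: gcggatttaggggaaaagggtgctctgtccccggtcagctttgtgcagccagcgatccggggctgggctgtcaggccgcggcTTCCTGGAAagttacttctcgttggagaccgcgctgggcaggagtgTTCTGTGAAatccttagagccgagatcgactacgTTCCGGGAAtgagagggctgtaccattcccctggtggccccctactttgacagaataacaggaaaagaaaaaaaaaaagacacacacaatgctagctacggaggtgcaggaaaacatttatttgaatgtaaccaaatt
Bach2 promoter, chr4:32417185-32417484, plus strand: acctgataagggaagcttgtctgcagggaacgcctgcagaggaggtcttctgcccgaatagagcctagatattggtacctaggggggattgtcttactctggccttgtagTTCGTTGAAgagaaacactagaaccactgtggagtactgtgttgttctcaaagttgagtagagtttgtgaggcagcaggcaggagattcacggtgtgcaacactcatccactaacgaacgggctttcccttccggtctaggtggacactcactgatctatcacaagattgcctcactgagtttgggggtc
Counted from the start, the matches began at position -118 in the upstream promoter of Bcl6, at -168, -122 and -88 in the downstream one, and at -140 in Bach2, whose promoter here lies inside the span of the gene rather than at its outermost start. A match is a description of the letters, and binding was not measured in these samples.

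Another 3 motifs were searched on both strands in the same promoters. The letters TGANTCA, a loose form of the AP-1 sites of dimers that include the Bach2 and Batf families, occurred in 7.81% of all promoters. In 1 member, Prdm1, they occurred as TGAATCA at position -48. E-box letters CANNTG, the sites of the E proteins that Id2 and Id3 hold off DNA, occurred in 72.3% of all promoters and in those of Tbx21, Prdm1, Bcl6, Id2, Gata3 and Irf4. The GATA letters AGATAA occurred in 11.2% of all promoters and in 0 of the 10 member promoters, where other forms of the GATA site were not searched.

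Prdm1 encodes Blimp-1, a repressor that marks effector Tregs and terminal effector CD8+ T cells. The gene (NM_007548) lies at chr10:44437174-44528558 on the minus strand. Unstimulated Tregs held 4.23, 5.13 and 5.40 RPKM. With IL-2-REH, they held 3.70, 2.87 and 3.56 RPKM at 1.5 hr and 3.45, 2.58 and 1.75 RPKM at 4 hr, below every unstimulated library. The same order was seen in 637 of all 14992 genes at 1.5 hr and in 908 at 4 hr. With IL-2, they held 5.33, 4.09 and 5.12 RPKM at 1.5 hr and 4.67, 3.17 and 2.41 RPKM at 4 hr, which overlapped the unstimulated range. The log2 fold change of IL-2-REH at 4 hr from unstimulated Tregs was -0.92 (SE 0.27, edgeR adjusted p = 0.16, and 0.057 with the replicate block), which was not called. DESeq2 called it (adjusted p = 0.040), and so did edgeR without replicate 1 of every group (-1.23, edgeR adjusted p = 0.020).

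Between the cytokines, Prdm1 ran opposite to Bcl6 in Tregs in sign. Its log2 fold change of IL-2-REH over IL-2 was -0.53 (SE 0.27, edgeR adjusted p = 1.0) at 1.5 hr and -0.47 (SE 0.27, edgeR adjusted p = 1.0) at 4 hr, and all 6 same-numbered pairs were lower, but neither was called. In CD8+ T cells, Prdm1 was low in all 5 libraries (0.472 to 1.02 RPKM, 151 to 321 reads), and its mean lay below a filter of 1 RPKM, so that it was left out of the count of 2-fold differences. Tregs held 4.84 times the CD8+ level before stimulation.

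Bach2, a bZIP repressor that holds T cells in a resting or memory state and restrains Blimp-1, was the factor called in Tregs in both edgeR fits. The gene (NM_001109661) spans chr4:32238413-32586109 on the plus strand, and 537 of its exon bases are shared with the antisense gene Bach2os, so that those reads cannot be assigned where the strand was not used. Unstimulated Tregs held 9.68, 16.3 and 11.9 RPKM, and the libraries at 1.5 hr stayed within 10.9 to 15.8 RPKM with both cytokines. After 4 hr of IL-2, they held 18.2, 30.2 and 25.6 RPKM, all above the unstimulated libraries, as for 895 of all 14992 genes. After 4 hr of IL-2-REH, they held 15.1, 29.2 and 15.4 RPKM, so that only replicate 2 lay above all unstimulated libraries.

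Bach2 rose with IL-2 at 4 hr by a log2 fold change of 1.05 (SE 0.23, edgeR adjusted p = 0.032, and 0.0073 with the replicate block), and was higher in 3 of 3 same-numbered pairs. With IL-2-REH at 4 hr it was 0.66 (SE 0.23, edgeR adjusted p = 0.22, and 0.093 with the replicate block). The difference between the cytokines at 4 hr was -0.39 (SE 0.23, edgeR adjusted p = 1.0), which does not separate them. The call with IL-2 was lost in 6 of the 9 fits that left out a replicate number or 1 library, with values of 0.95 to 1.22, and among these were the fits without IL-2 4 hr replicate 3 (0.95, edgeR adjusted p = 0.11) and without unstimulated replicate 3 (1.04, edgeR adjusted p = 0.16). Without unstimulated replicate 1 it was 0.96 (edgeR adjusted p = 0.037). With the replicate block, the call held without each of the 6 libraries in turn, with values of 0.89 to 1.17 and edgeR adjusted p from 0.0048 to 0.04991. Bach2 in CD8+ T cells went from 10.2 RPKM at 1.5 hr to 23.5 RPKM at 4 hr with IL-2, a ratio of 2.31 (95% exact interval 2.24 to 2.38), and from 10.3 to 27.6 RPKM with IL-2-REH, a ratio of 2.68 (2.60 to 2.76). Before stimulation the CD8+ library held 13.6 RPKM, inside the range of the 3 unstimulated Treg libraries.

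**Figure D3:**
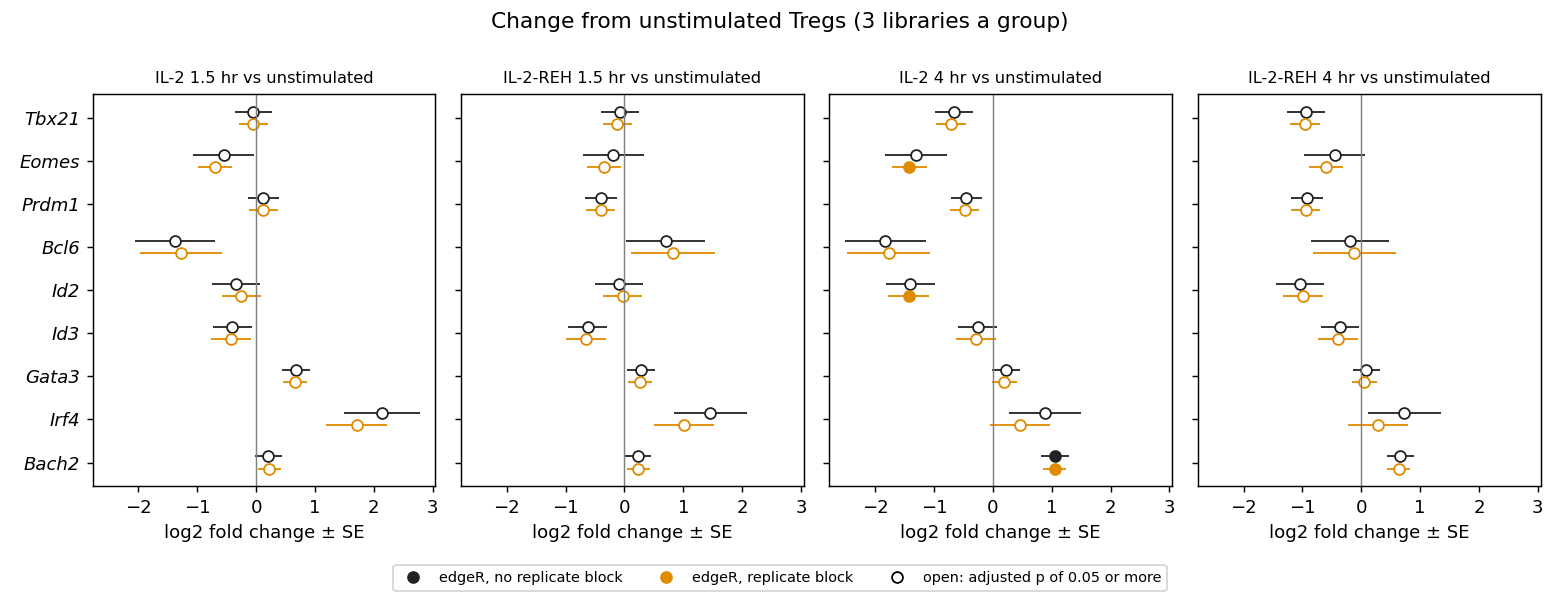
Log2 fold change from unstimulated Tregs (horizontal axes, ± SE, 3 libraries per group) for each of the 9 factors in 4 panels, IL-2 and IL-2-REH at 1.5 hr and at 4 hr, from edgeR without (black) and with (orange) the replicate block, where filled points have an adjusted p under 0.05. Filled points appear at 4 hr of IL-2, for Bach2 in both fits and for Eomes and Id2 with the block.

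Irf4 is a factor induced by antigen receptor and cytokine signals and needed for effector Treg differentiation. In Tregs, its replicate 1 was above replicates 2 and 3 without cytokine and below both in every group given cytokine. The gene (NM_013674) lies at chr13:30749233-30766981 on the plus strand. Unstimulated Tregs held 22.8, 14.6 and 13.3 RPKM. At 1.5 hr, they held 31.4, 82.7 and 85.0 RPKM with IL-2 and 17.9, 55.4 and 51.8 RPKM with IL-2-REH. All IL-2 libraries lay above all unstimulated ones, as for 1071 of all 14992 genes. With IL-2-REH, replicate 1 lay among the unstimulated libraries. At 4 hr, they held 13.2, 51.0 and 29.4 RPKM with IL-2 and 11.5, 50.1 and 26.4 RPKM with IL-2-REH, and replicate 1 was below its unstimulated library with both.

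Irf4 with IL-2 at 1.5 hr had a log2 fold change of 2.14 (SE 0.64, edgeR adjusted p = 0.17, and 0.11 with the replicate block), and it was higher in 3 of 3 pairs. With IL-2-REH it was 1.46 (SE 0.63, edgeR adjusted p = 0.41). Without unstimulated replicate 1 the value with IL-2 was 2.54 (edgeR adjusted p = 0.043), and without replicate 1 of every group it was 2.90 with IL-2 (edgeR adjusted p = 0.00076) and 2.23 with IL-2-REH (edgeR adjusted p = 0.0022). The same fit gave 1.63 with IL-2 (edgeR adjusted p = 0.0084) and 1.50 with IL-2-REH (edgeR adjusted p = 0.012) at 4 hr. The difference of IL-2-REH from IL-2 at 1.5 hr was -0.68 (SE 0.62, edgeR adjusted p = 1.0) with all libraries. The CD8+ libraries had Irf4 at 3.43 RPKM without cytokine, 9.28 RPKM with IL-2 and 5.62 RPKM with IL-2-REH at 1.5 hr, and at 6.67 and 4.29 RPKM at 4 hr. The ratio to unstimulated cells at 1.5 hr was 2.71 for IL-2 (95% exact interval 2.52 to 2.91) and 1.64 for IL-2-REH (1.52 to 1.78), without replicates.

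Gata3, the zinc finger factor of type 2 helper cells that also supports Tregs in tissues, had the highest median of the 9 over the Treg libraries. The gene (NM_008091) lies at chr2:9857078-9887953 on the minus strand, and 232 of its exon bases are shared with 9230102O04Rik and Gm13256. The unstimulated libraries held 33.6, 39.1 and 36.0 RPKM, a narrow spread. With IL-2 at 1.5 hr they held 53.3, 57.9 and 47.1 RPKM, all above the unstimulated range, as for 1071 of all 14992 genes. With IL-2-REH they held 37.6, 43.5 and 38.6 RPKM, all below the IL-2 range. At 4 hr, the libraries ran from 30.2 to 58.3 RPKM with IL-2 and from 25.6 to 45.8 RPKM with IL-2-REH, on both sides of the unstimulated values.

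Gata3 with IL-2 at 1.5 hr had a log2 fold change of 0.69 (SE 0.24, edgeR adjusted p = 0.23, and 0.12 with the replicate block), which was not called. That of IL-2-REH over IL-2 was -0.40 (SE 0.24, edgeR adjusted p = 1.0), with 3 of 3 pairs lower. Gata3 in CD8+ T cells stood at 9.89 RPKM without cytokine, 6.09 RPKM with IL-2 and 8.40 RPKM with IL-2-REH at 1.5 hr, and at 5.23 and 7.87 RPKM at 4 hr, so that the order of the cytokines was the opposite of that in Tregs at 1.5 hr. That difference between the cell types was not tested. Tregs held 8.66 times the CD8+ level with IL-2 at 1.5 hr and 3.67 times without cytokine.

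Tbx21 and Eomes, the T-box factors of type 1 and cytotoxic cells, were low in Tregs. Tbx21 (NM_019507) lies at chr11:97098007-97115331 on the minus strand, and Eomes (NM_010136) at chr9:118478186-118486132 on the plus strand, where 118 exon bases are shared with Gm33460 on the other strand. Tbx21 was at 1.95, 3.12 and 2.19 RPKM in unstimulated Tregs. It was at 0.846, 2.23 and 1.32 RPKM after 4 hr of IL-2 and at 0.934, 1.18 and 1.58 RPKM after 4 hr of IL-2-REH, where all 3 libraries were below the unstimulated ones. With IL-2-REH at 4 hr, 908 of all 14992 genes were so ordered. From unstimulated Tregs, IL-2 gave a log2 fold change of -0.66 (SE 0.32, edgeR adjusted p = 0.31) and IL-2-REH one of -0.94 (SE 0.32, edgeR adjusted p = 0.22, and 0.057 with the replicate block), neither of them called.

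Eomes was at 0.992, 1.56 and 1.59 RPKM in unstimulated Tregs and at 0.279, 0.919 and 0.415 RPKM after 4 hr of IL-2, with no overlap. Such an order, lower in all 3 IL-2 libraries, held for 1308 of all 14992 genes. After 4 hr of IL-2-REH, it was at 0.469, 1.24 and 1.28 RPKM, inside or below the unstimulated range. In each group, replicate 1 had the lowest Eomes. Its log2 fold change with IL-2 at 4 hr was -1.31 (SE 0.53, edgeR adjusted p = 0.22), and with the replicate block Eomes fell by 1.42 on the log2 scale (SE 0.30, edgeR adjusted p = 0.013), lower in 3 of 3 pairs. The call with the block was lost without IL-2 4 hr replicate 3 (-1.18, edgeR adjusted p = 0.058) and held without each of the other 5 libraries, among them unstimulated replicate 1 (-1.07, edgeR adjusted p = 0.013). Without the block, edgeR called Eomes when replicate 1 of every group was left out (-1.14, edgeR adjusted p = 0.042). With IL-2-REH at 4 hr it was -0.46 (SE 0.52, edgeR adjusted p = 0.76), and the difference of IL-2-REH from IL-2 at 4 hr was 0.86 (SE 0.52, edgeR adjusted p = 1.0).

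Markers of natural killer (NK) cells, which express both T-box factors, were, like Eomes, lowest in replicate 1 of each Treg group when summed. The summed level of 4 NK markers (Ncr1, Klrb1c, Klra8 and Klre1) was 0.324, 7.89 and 4.75 RPKM in the unstimulated Tregs and 0.387, 5.73 and 1.69 RPKM after 4 hr of IL-2. It was thus lower after IL-2 in replicates 2 and 3, whereas in replicate 1 both sums were too low to compare. In replicate 1 of IL-2 at 4 hr, 1 of the 4 markers had no reads. In CD8+ T cells the sum was 19.2 RPKM without cytokine and 10.2 to 14.7 RPKM with it. The summed level of 6 myeloid markers was lower after 4 hr of IL-2 than in unstimulated Tregs in every same-numbered pair. Unstimulated first, it was at 15.4 and 7.68 RPKM in replicate 1, 65.1 and 26.8 RPKM in replicate 2 and 53.7 and 20.3 RPKM in replicate 3. The part of these markers in the values of Eomes and Tbx21 was not tested. In bulk RNA, fewer cells of a type and less RNA per cell cannot be told apart.

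In CD8+ T cells, Eomes was at 22.4 RPKM without cytokine and at 8.48, 10.1, 10.6 and 9.29 RPKM with IL-2 and IL-2-REH at 1.5 hr and at 4 hr, in this order. The unstimulated level was 2.64 times that with IL-2 and 2.22 times that with IL-2-REH at 1.5 hr, and 2.12 and 2.41 times at 4 hr. Tbx21 followed another order. It was at 9.86 RPKM without cytokine, at 7.81 and 8.99 RPKM with IL-2 at 1.5 hr and 4 hr, and at 3.61 and 3.84 RPKM with IL-2-REH. The level with IL-2 was 2.16 times that with IL-2-REH at 1.5 hr and 2.34 times at 4 hr, whereas in Tregs the same-numbered pairs took both signs at each time.

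Id2 and Id3, which bind E proteins and keep them from DNA, are used as opposite markers of effector and memory CD8+ T cells. Id2 (NM_010496) lies at chr12:25093799-25096092 on the minus strand and Id3 (NM_008321) at chr4:136143822-136145392 on the plus strand. Id2 was at 59.5, 30.7 and 31.3 RPKM in unstimulated Tregs. It was at 19.7, 21.8 and 4.88 RPKM after 4 hr of IL-2 and at 23.2, 22.6 and 15.2 RPKM after 4 hr of IL-2-REH, all below the unstimulated libraries. The log2 fold change with IL-2 at 4 hr was -1.40 (SE 0.41, edgeR adjusted p = 0.10), and with the replicate block Id2 fell by 1.43 on the log2 scale (SE 0.34, edgeR adjusted p = 0.025). With IL-2-REH it was -1.05 (SE 0.41, edgeR adjusted p = 0.28, and 0.12 with the replicate block). The lowest value, 4.88 RPKM (205 reads), was that of IL-2 4 hr replicate 3, without which the log2 fold change was -1.002 (edgeR adjusted p = 0.20). Without unstimulated replicate 1, the highest library, it was -0.90 (edgeR adjusted p = 0.17), both in the fit without the block. With the block, the call was lost without IL-2 4 hr replicate 3 (-1.02, edgeR adjusted p = 0.061) and without unstimulated replicate 3 (-1.40, edgeR adjusted p = 0.072), and held without unstimulated replicate 1 (-1.12, edgeR adjusted p = 0.043) and without each of the other 3 libraries. The myeloid marker sum given with Eomes was lower in the same 3 pairs, and its part in the values of Id2 was not tested.

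Id3 was at 8.93, 29.1 and 25.9 RPKM in unstimulated Tregs, so that here replicate 1 was the low library. With cytokine, the 12 libraries ran from 10.2 to 22.2 RPKM. Replicate 1 was higher with cytokine in all 4 groups and replicates 2 and 3 were lower in all 4, and the fold changes of the whole groups lay between -0.26 and -0.63, none of them called. Without unstimulated replicate 1, Id3 was lower with IL-2-REH at 1.5 hr (log2 fold change -0.96, edgeR adjusted p = 0.030), and without replicate 1 of every group it was lower at 1.5 hr of IL-2 (-0.83, edgeR adjusted p = 0.032) and at both times of IL-2-REH (-1.07, edgeR adjusted p = 0.013, and -1.02, edgeR adjusted p = 0.021). Id3 in CD8+ T cells was at 7.12 RPKM without cytokine, 13.8 and 10.3 RPKM with IL-2 and IL-2-REH at 1.5 hr, and 9.99 and 6.98 RPKM at 4 hr. Id2 there was at 43.3 RPKM without cytokine, 19.0 and 10.01 RPKM at 1.5 hr, and 30.05 and 19.4 RPKM at 4 hr, so that the unstimulated library held the highest level. At 1.5 hr of IL-2-REH, the unstimulated level of Id2 was 4.32 times as high, the widest ratio to unstimulated cells of the 9 factors in CD8+ T cells. The sum of Cd8a and Cd8b1 was likewise highest in the unstimulated CD8+ library, at 728 RPKM. It was 378 and 282 RPKM with IL-2 and IL-2-REH at 1.5 hr, and 493 and 420 RPKM at 4 hr. The sum of Cd3e, Cd3d, Cd3g and Lck was 1036 RPKM unstimulated and 573 to 675 RPKM with cytokine. Whether the lower Id2 and Eomes share a source with these was not tested.

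Counted over the CD8+ libraries, a factor was taken as different at a log2 ratio of RPKM + 1 of at least 1 in size, over 10021 genes with a mean of at least 1 RPKM, 8 of the 9 factors among them. Against unstimulated cells, 4 of 8 passed with IL-2 at 1.5 hr (Irf4 higher, Eomes, Bcl6 and Id2 lower), where 7.24% of all genes did. With IL-2-REH at 1.5 hr, 3 of 8 passed (Tbx21, Eomes and Id2, all lower), against 8.57% of all genes. At 4 hr, 2 of 8 passed with IL-2 (Eomes and Bcl6, lower), against 4.71%, and 3 of 8 with IL-2-REH (Tbx21, Eomes and Id2, lower), against 6.11%. Eomes was the only factor that passed as lower in all 4 comparisons, and with IL-2 at 4 hr its log2 ratio of -1.02 was close to the threshold. By sign alone, Tbx21, Id2 and Gata3 were also lower in all 4.

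Between the cytokines in CD8+ T cells, 1 of 8 passed at 1.5 hr (Bcl6, higher with IL-2-REH), against 0.868% of all genes, and 2 of 8 at 4 hr (Bcl6 higher and Tbx21 lower), against 2.23%. Between 4 hr and 1.5 hr, Bach2 alone passed, higher at 4 hr with IL-2 (2% of all genes) and with IL-2-REH (1.89%). The median log2 ratio of all genes lay between -0.12 and 0.08 in these 8 comparisons. Each CD8+ group is 1 library, so that these counts have no replicate check.

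**Figure D4:**
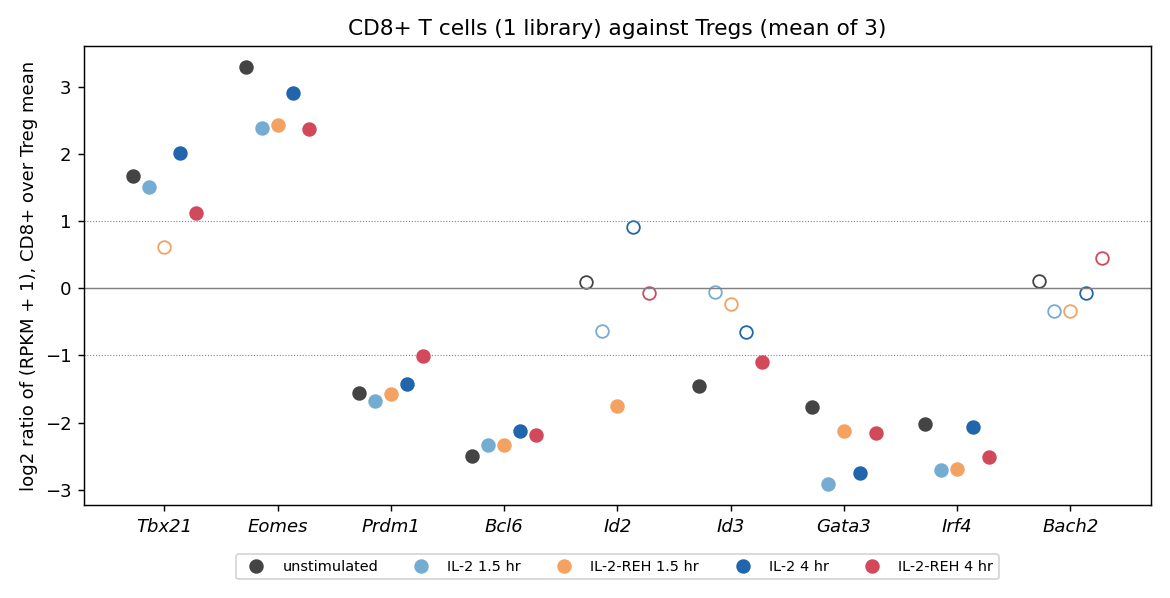
Log2 ratio of RPKM + 1 of the CD8+ library over the mean of the 3 Treg libraries (vertical axis) for the 9 factors in the 5 conditions (colours), with filled points where the CD8+ value lay outside the 3 Treg values and the ratio was at least 1 in size (dotted lines). Eomes lies between 2.37 and 3.30, Prdm1, Bcl6, Gata3 and Irf4 lie below -1 in every condition, and Bach2 lies between -0.34 and 0.45.

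The cell types were set apart by most of the factors. A factor was counted when its CD8+ value lay outside the 3 Treg values of the same condition at a log2 ratio of at least 1 in size, over 10825 genes with a mean of at least 1 RPKM in either cell type. Eomes passed this filter only through CD8+ T cells and Prdm1 only through Tregs, the cell type where each was higher. The filter thus favoured their being counted, and the counts that include them are a description. Without cytokine, 7 of 9 were counted, against 11% of all genes. The count was 6 of 9 with IL-2 at 1.5 hr (12% of all genes), 6 of 9 with IL-2-REH at 1.5 hr (12.8%), 6 of 9 with IL-2 at 4 hr (12.9%) and 7 of 9 with IL-2-REH at 4 hr (13.1%). Eomes was higher in CD8+ T cells in all 5 conditions, from 9.33 to 19.7 times the Treg mean. Prdm1, Bcl6, Gata3 and Irf4 were higher in Tregs in all 5, and Bcl6 was 5.42 to 9.57 times as high. Without Treg replicate 1, unstimulated Bcl6 was 2.50 times as high rather than 7.12 times, and it was still counted. Without Treg replicate 2, the ratio with IL-2-REH at 4 hr went from 5.42 to 3.46 for Bcl6 and from 6.84 to 4.42 for Irf4, and that of Eomes with IL-2 at 4 hr went from 19.7 to 30.4.

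The remaining factors depended on the condition. Tbx21 was counted as higher in CD8+ T cells in 4 conditions but not with IL-2-REH at 1.5 hr, where the ratio was 1.79. Id3 was counted as lower in CD8+ T cells without cytokine and with IL-2-REH at 4 hr, Id2 only with IL-2-REH at 1.5 hr, and Bach2 in none. Each of these counts rests on 1 CD8+ library per condition, and no test was run on it.

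Genes tied to the 9 factors were taken as 5 lists with 61 genes in all, of which 59 were tested. With IL-2 at 4 hr, edgeR called 4 as higher and 3 as lower (11.9%, against 2.26% of all genes), and with the replicate block 6 as higher and 9 as lower (25.4%, against 6.94%). With IL-2-REH at 4 hr, it called 0 as higher and 2 as lower (3.39%, against 0.314%), and 2 and 8 with the block (16.9%, against 3.03%). At 1.5 hr, both fits called 3 as higher and 1 as lower for IL-2 (6.78%, against 0.854% of all genes without and 1.83% with the block), and 1 as higher and 0 as lower for IL-2-REH (1.69%, against 0.0934% and 0.213%). These lists were chosen with earlier results of these data known, and the shares are a description. Between the cytokines, 0 of 59 were called at either time in either fit (0.0133% to 0.0667% of all genes), and between the time points 1 was, Cxcr5 with IL-2 in the fit with the block (1.69%, against 0.387% of all genes, lower at 4 hr).

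Among 9 tested bZIP and interferon regulatory partners of Irf4 and Bach2, Junb was called as lower at 4 hr with both cytokines. This AP-1 subunit fell from 606 ± 114 RPKM (SD, n = 3) in unstimulated Tregs to 210 ± 66.2 RPKM with IL-2 (log2 fold change -1.46, SE 0.32, edgeR adjusted p = 0.033) and to 179 ± 43.0 RPKM with IL-2-REH (-1.78, SE 0.33, edgeR adjusted p = 0.038). With the block, Jund and Irf8 were also lower with IL-2-REH at 4 hr. Of the 4 tested E proteins and Id relatives, 0 were called in any of the comparisons in either fit. Of the 8 partners of the T-box, GATA and PR-domain factors, Zbtb7b was called as lower with IL-2 at 1.5 hr (log2 fold change -1.99, SE 0.42, edgeR adjusted p = 0.042). It was at 6.99 ± 1.54 RPKM there, against 31.8 ± 22.3 RPKM in unstimulated Tregs (SD, n = 3), whose libraries spread widely. Zfpm1, the cofactor of GATA proteins, was called as lower at 4 hr of both cytokines with the block, where Zbtb16 (PLZF) was higher with IL-2 at 4 hr.

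Of the 18 other effector and memory factors, Myb, which supports stem-like memory and effector Tregs, was called with IL-2. It was at 14.1 ± 1.85 RPKM (SD, n = 3) in unstimulated Tregs and rose to 39.7 ± 6.75 RPKM at 1.5 hr (log2 fold change 1.64, SE 0.28, edgeR adjusted p = 0.012) and 39.2 ± 15.4 RPKM at 4 hr (1.51, SE 0.28, edgeR adjusted p = 0.014). Tcf7, the memory factor TCF-1, fell by 1.04 on the log2 scale with IL-2 at 4 hr in the fit with the block (SE 0.24, edgeR adjusted p = 0.020). The Ikaros family members Ikzf3 and Ikzf1 were lower in that fit, with IL-2 and IL-2-REH respectively at 4 hr.

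Of 20 target genes tied to the factors or to STAT5, Cish, a feedback inhibitor of the IL-2 receptor, rose with IL-2 by 2.12 on the log2 scale at 1.5 hr (SE 0.19, edgeR adjusted p = 7.56e-05) and with IL-2-REH by 1.10 (SE 0.18, edgeR adjusted p = 0.034). Socs2 also rose with IL-2 at both times and Il2ra at 4 hr. Cxcr5, the follicular homing receptor that goes with Bcl6 in follicular T cells, was lower at 4 hr with IL-2 (log2 fold change -1.36, SE 0.26, edgeR adjusted p = 0.016) and with IL-2-REH (-1.40, SE 0.26, edgeR adjusted p = 0.038), at 6.16 ± 2.67 and 6.17 ± 0.583 RPKM against 16.4 ± 5.01 RPKM in unstimulated Tregs (SD, n = 3). Il7r, the receptor of the memory cytokine IL-7, was lower with IL-2 at 4 hr (-1.37, SE 0.28, edgeR adjusted p = 0.023). With the block, Gzmb was also higher and Ifng, Il10 and Klrg1 also lower with IL-2 at 4 hr, and with IL-2-REH Cish and Socs2 were higher and Ifng and Prf1 lower. Ifng was low, with as few as 4 reads in a Treg library. It was at 5.23 ± 3.28 RPKM in unstimulated Tregs (SD, n = 3). At 4 hr it was at 0.957 ± 1.32 RPKM with IL-2 and 0.732 ± 0.326 RPKM with IL-2-REH. The authors' quantitative PCR instead showed Ifng raised by both cytokines in Tregs after 4 hr, and this difference was not tested.

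As a description, the genes with the most similar pattern to each factor were taken by Pearson's r of log2(RPKM + 1) over the 15 Treg libraries, among 10473 genes with a mean of at least 1 RPKM. These libraries share depth, replicate number and condition, so that r is given without a p-value. For Bcl6 they were Fhl2 (r = 0.91), Ctsf (0.87) and Cenpa (0.87). For Irf4 they were Ubap2 (0.94), Satb1 (0.93) and Arih2 (0.93), and for Bach2 they were Usp49 (0.95), Brpf3 (0.95) and Usp40 (0.95). For Eomes they were Lyz1 (0.94), Tnfrsf1a (0.93) and Tyrobp (0.93), of which Lyz1 and Tyrobp are genes of myeloid and NK cells. The summed level of 6 myeloid markers was 7.68 to 15.4 RPKM in the Treg libraries of replicate 1 and 20.3 to 65.1 RPKM in those of replicates 2 and 3, and its part in the values of Eomes was not tested. For Id2 they were Rnf138 (0.96), Gpr65 (0.95) and Dcun1d1 (0.94), for Id3 D6Wsu163e (0.93), Traf5 (0.93) and Nxpe3 (0.93), and for Gata3 Noc4l (0.86), Pom121 (0.86) and Larp1b (0.85). Tbx21 was most like Slc25a37 (0.88), Zcchc2 (0.87) and Snora31 (0.87), and Prdm1 most like Lgalsl (0.85), St8sia4 (0.83) and Actr2 (0.81). Among the 9 factors themselves, the highest r was that of Gata3 with Irf4 (0.70) and the lowest that of Id3 with Irf4 (-0.63).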

How the data were processed

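RNA-seq of 20 libraries was analysed. The submitters' processing notes name the mm10 build and the tools Bowtie2 2.2.6, TopHat2 2.1.1, SAMtools 0.1.8, bedtools 2.25.0 and edgeR. For each of 31682 RefSeq transcripts, the authors deposited the number of reads on exons (raw counts) and the RPKM, reads scaled to exon length and mapped reads. Whether strand was used in counting was not given in the sources used here. No pair of libraries held identical values (0 pairs). Where a symbol (23992 in all) had several transcripts, the one that drew most reads was kept.

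Read counts from the 15 Treg libraries entered edgeR 4.0.16 (TMM, filterByExpr, quasi-likelihood test, 1 mean per group) in R 4.3.3 and adjusted by the Benjamini-Hochberg method. Alternatives were a block for the replicate number, limma 3.58.1 on log2(RPKM + 1) or log2(RPKM + 0.1), DESeq2 1.42.0, no filter, a fit of the groups compared alone, the longest transcript, and leaving out replicate numbers or single libraries. Deviations from the group means were alike in libraries with the same number (correlation across genes 0.109 to 0.828 over 30 pairs, against -0.671 to 0.334 over 60 pairs with different numbers), so the numbers were taken to pair the samples. For CD8+ T cells, alternatives were a pseudocount of 0.1, a threshold of 2, a minimum of 5 RPKM and centring on the median. CD8+ T cells had no replicates, and log2 ratios of RPKM + 1, which understate changes of low genes, were given without a test. Intervals are exact and cover counting error only, since reads without molecular identifiers are not independent molecules.

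The 9 members and the gene lists were chosen with earlier results of these data known. All 9 members were named, with log2 fold changes for those called by either edgeR fit or given as examples that were not called, called genes of the lists, and for each member the 3 genes most like it. Promoters (searched on both strands for STAT, AP-1, E-box and GATA letters) and coordinates came from RefSeq and GRCm38.p6, the same assembly as mm10. Python 3.11.15 was used with pandas 2.3.3, scipy 1.17.1, matplotlib 3.10.9 and numpy 2.4.6.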

Additional observations from a re-analysis of the deposited data

Results flagged for a closer look

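In 14 cases, all 3 same-numbered Treg pairs went one way and the single CD8+ pair went the other. The scale was log2 ratios of RPKM + 1, and each of the 9 factors was looked at in 8 comparisons. Only the sign was used, with no minimum size. The share of all genes with such opposite signs is not given, so that the count of 14 is a description. None of these differences between the cell types was tested, since the CD8+ side is 1 pair. For Gata3, the CD8+ pair was -0.62 (IL-2) and -0.21 (IL-2-REH) against unstimulated cells at 1.5 hr, where the Treg pairs were 0.38 to 0.65 and 0.10 to 0.16. The difference of IL-2-REH from IL-2 in Gata3 at 1.5 hr was 0.41 in CD8+ T cells and -0.49 to -0.28 in Tregs.

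For Id2 that difference was -0.86 at 1.5 hr and -0.61 at 4 hr in CD8+ T cells, with Treg pairs of 0.13 to 0.33 and 0.05 to 1.46. From 1.5 hr to 4 hr, Id2 in CD8+ T cells went by 0.63 (IL-2) and 0.89 (IL-2-REH), whereas the Treg pairs were -2.22 to -0.36 and -0.94 to -0.57.

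For IL-2-REH over IL-2 after 4 hr, the CD8+ pair was -0.17 for Eomes (Treg pairs 0.20 to 0.69), 0.12 for Prdm1 (Treg pairs -0.35 to -0.22) and 0.22 for Bach2 (Treg pairs -0.70 to -0.05). From 1.5 hr to 4 hr with IL-2, it was 0.18 for Tbx21 (Treg pairs -0.76 to -0.00) and 0.29 for Eomes (Treg pairs -0.52 to -0.04). With IL-2-REH, it was 0.068 for Tbx21 (Treg pairs -0.60 to -0.29) and 0.28 for Prdm1 (Treg pairs -0.73 to -0.08). Prdm1 lay near 1 RPKM in CD8+ T cells.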

How the results depend on the processing

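Of 29 log2 fold changes of single factors refitted under 496 settings in all, 449 kept their direction and side of the threshold, 29 gained and 9 lost a call, and 9 reversed, 8 of them of Bcl6 against unstimulated cells and 1 of Irf4. For IL-2 at 1.5 hr, leaving out replicates or libraries gave -1.88 to 0.37, the reversed values being 0.37 without replicate 1 and 0.33 without unstimulated replicate 1. For IL-2-REH at 4 hr they gave -1.16 to 1.83 (1.83 without replicate 1, 1.52 without unstimulated replicate 1 and 0.11 without IL-2-REH replicate 1), and limma gave 0.33 with a pseudocount of 1 and 0.37 with 0.1. In the block fits without 1 library, which were chosen after the data had been seen, Bcl6 with IL-2 at 4 hr was 0.061 without unstimulated replicate 1 and Irf4 was -0.057 without unstimulated replicate 2. The cause was not tested.

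The count of factors called with IL-2 at 4 hr was 1 without and 3 with the replicate block, 2 by DESeq2, and 0 by limma with either pseudocount or in a fit of the 2 groups alone. DESeq2 called 1 with IL-2 at 1.5 hr (Irf4), 1 with IL-2-REH at 4 hr (Prdm1) and 1 between the IL-2 time points (Bach2). Leaving out replicates or libraries gave 0 to 2 with IL-2 at 1.5 hr, 0 to 3 with IL-2-REH at 1.5 hr, 0 to 3 with IL-2 at 4 hr, 0 to 4 with IL-2-REH at 4 hr and 0 to 2 between the IL-2 time points, the highest each time without replicate 1. For these alternatives other than the replicate block, the share of all genes called is not given. Their counts are therefore a description and not a result about the 9 factors. The replicate block changed no other call of the 9 factors.

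In CD8+ T cells, a threshold of 2 on the log2 scale left 1 factor with IL-2-REH at 1.5 hr (Id2) and 0 in the other 7 comparisons. With IL-2 at 4 hr, centring on the median left 1 (Bcl6, as Eomes lay too near the threshold), and a minimum of 5 RPKM left 1 (Eomes). Between the cytokines, that minimum left 0 at 1.5 hr and 1 at 4 hr, since Bcl6 falls below it, and a pseudocount of 0.1 gave 2 at 1.5 hr. The share of all genes under these settings is not given, so that the counts are a description. Of the 27 genes named as most like a factor, 1 was also found from deviations within groups. There were 3 libraries per Treg group and 1 per CD8+ group, and each factor had at least 49 reads in every Treg library and 151 in every CD8+ library.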
